A study of Mus musculus with 48 samples.

Results

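Ventral skin labelled competent telogen was compared with ventral skin labelled early anagen, the step at which resting hair follicles (HFs) enter growth. The comparison holds 6 libraries, chosen by their column names in a table of 43 skin libraries. The series has 48 libraries in all. The study profiled whole skin of C57BL/6 mice from chin, ventral and dorsal domains at 6 hair cycle stages, to ask how the cycle differs between body regions. All 6 libraries were prepared by SMART-seq2, which amplifies full-length cDNA before sequencing, from total RNA of skin of the ventrum. 3 were labelled competent telogen, the first rest phase, in which HFs can answer a growth signal. The other 3 were labelled early anagen. The labels gave no age, sex or treatment, and no allele other than the strain. Nothing said that the replicates came from separate mice, so the p-values measure only the spread between these libraries, which may be technical.

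During telogen the HF is a small resting epithelium around its stem cells, next to a cluster of mesenchymal cells called the dermal papilla. At anagen onset, WNT and hedgehog signals rise and BMP signals fall, hair germ cells divide, and the new hair matrix begins to make inner root sheath and then hair shaft. Melanocytes divide and make pigment with the matrix. At refractory telogen, the rest phase that follows growth, division and pigment production are low again.

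Values are FPKM, fragment counts divided by transcript length and library size, as the authors deposited them. The 6 libraries held an estimated 8253293 to 18627003 fragments each. The same estimate put fragment length at 225, 231 and 150 bases in the libraries labelled competent telogen. It was 143, 150 and 162 bases in those labelled early anagen, and its effect on the values of short genes was not tested. Whole skin markers were present in every library, with a mean level over 12 skin identity genes of 9.03 to 9.16 on the log2(FPKM + 1) scale in the libraries labelled competent telogen and 8.71 to 8.78 in those labelled early anagen. Hair cycle markers did not follow the labels. Each labelled group of 1 domain and 1 stage was also compared with the other groups across 21257 genes, not markers alone. The ventral libraries labelled competent telogen were nearest to dorsal early anagen (r = 0.971), then to chin competent telogen (r = 0.97). Those labelled early anagen were nearest to dorsal refractory telogen (r = 0.968), then to chin refractory telogen (r = 0.962) and ventral refractory telogen (r = 0.961). The correlation between the compared pair was 0.952. These correlations are across genes, which are not independent replicates. Group names below are therefore the names given in the labels, and the reason for this order was not tested.

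A limma fit to log2(FPKM + 1) over 17558 genes compared the groups. At an adjusted p under 0.05, 8206 genes (46.7%) differed. Of these, 2510 (14.3%) were higher and 5696 (32.4%) lower in the libraries labelled early anagen. The difference was over 1 on the log2 scale for 514 higher and 1272 lower genes. Each direction depends on a reference: the median difference over all genes was -0.16, and under median-of-ratios scaling it was 0.01, with 3995 genes higher (22.8%) and 3830 lower (21.8%). Keratin and keratin-associated protein genes took 2.82% to 3.46% of all FPKM in the libraries labelled competent telogen and 7.17% to 7.43% in those labelled early anagen. With values rescaled to a common sum without these genes, an alternative added after seeing the data, 2473 genes were higher and 4895 lower. Directions below are for the deposited values. The scaled result is given for some lists and genes only, and counts shown without it can also move with scaling. For example, the lower WNT target genes numbered 9 as deposited and 7 when scaled.

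**Figure D1:**
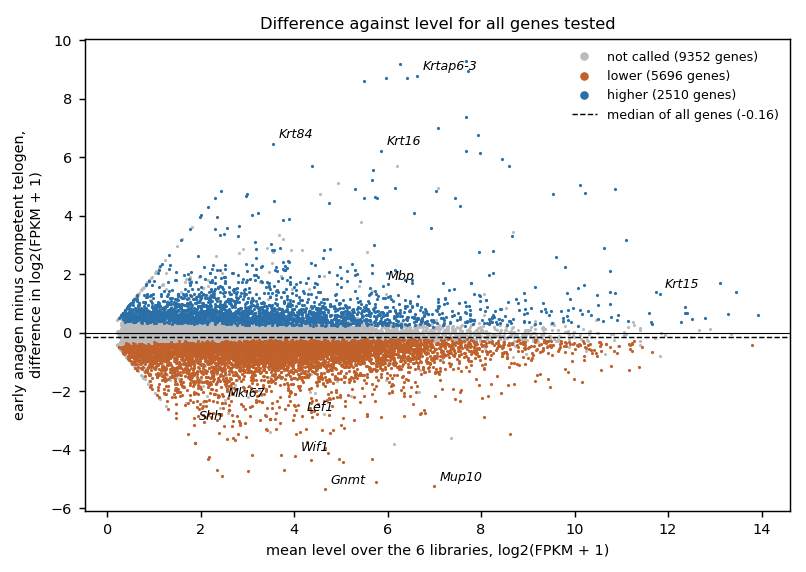
Difference between libraries labelled early anagen and competent telogen (log2, y axis) against mean level (log2(FPKM + 1), x axis) for 17558 genes, 1 point a gene, with called genes in color. The 2510 higher genes reach larger differences than the 5696 lower genes, and the lower genes are more numerous.

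Genes of cell division fell as a group. All 26 mitosis genes tested were lower in the libraries labelled early anagen, with a median log2 difference of -2.59, against 32.4% and -0.16 over all genes. Under median-of-ratios scaling, 25 of the 26 were lower, and the kinase Ttk no longer passed. Ccnb1, the cyclin that drives entry into mitosis, was at 55.2, 57.5 and 51.9 FPKM in the libraries labelled competent telogen and at 5.7, 2.88 and 4.99 in those labelled early anagen. Its partner kinase Cdk1 was at 117, 110 and 85.2 FPKM against 11.2, 8.17 and 10.3. Mki67, which marks cycling cells, was at 11.2, 12.5 and 11.1 FPKM against 1.42, 1.39 and 1.39. No library of one group reached the range of the other for any of these genes. The log2 difference was -3.38 ± 0.20 (SE, n = 3 against 3, adjusted p = 4.06e-05) for Ccnb1 and -2.39 ± 0.09 (adjusted p = 9.85e-06) for Mki67. The member with the largest difference was Ccnb2, a second mitotic cyclin, at 58.7, 57.9 and 46.1 FPKM against 2.94, 4.76 and 4.26 (log2 difference -3.48 ± 0.17, adjusted p = 1.89e-05). Ube2c, the enzyme that loads ubiquitin on mitotic cyclins, followed at -3.42 ± 0.13 (adjusted p = 9.71e-06). In bulk skin, fewer cells of a type and less RNA per cell cannot be told apart.

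The promoters of mitosis genes often carry CCAAT boxes and a cell cycle element with the core TTTGAA. These motifs were searched on both strands (ATTGG and TTCAAA on the other) in RefSeq promoters of GRCm38.p6, from 250 bases before to 50 after each gene's start, for all 26 lower genes. Windows were matched for 22 of them. CCAAT was in 18 of the 22 (81.8%) and in 41.1% of all genes, and TTTGAA was in 17 of the 22 (77.3%) and in 20.2% of all genes. A match is a description of these letters and no evidence of binding. Both largest-difference members are shown, 5′ to 3′ in the direction of transcription, with matches in capitals. Ccnb2 lies at chr9:70421505-70421804 on the minus strand and Ube2c at chr2:164769679-164769978 on the plus strand. Ccnb2 holds CCAAT 87, 54 and 21 bases before the start, on its coding strand. In Ube2c, the run CCAATTGG is a pair of overlapping CCAAT matches on opposite strands.
Ccnb2: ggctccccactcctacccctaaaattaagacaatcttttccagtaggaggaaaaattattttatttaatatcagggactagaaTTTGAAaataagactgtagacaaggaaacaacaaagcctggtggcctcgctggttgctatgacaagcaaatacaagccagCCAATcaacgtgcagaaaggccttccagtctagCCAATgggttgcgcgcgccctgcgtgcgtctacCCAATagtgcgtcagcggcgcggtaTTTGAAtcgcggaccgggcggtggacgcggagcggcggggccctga
Ube2c: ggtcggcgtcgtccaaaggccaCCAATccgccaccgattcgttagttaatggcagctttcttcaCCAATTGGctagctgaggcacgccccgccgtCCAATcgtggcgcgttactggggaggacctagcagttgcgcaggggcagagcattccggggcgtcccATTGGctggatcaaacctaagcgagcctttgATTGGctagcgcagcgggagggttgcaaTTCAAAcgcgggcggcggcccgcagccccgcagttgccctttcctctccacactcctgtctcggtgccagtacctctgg

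Of 26 DNA replication genes, 25 were lower and none was higher (median -1.39). Among 18 cyclins, CDKs and CDK inhibitors, 13 were lower and 1 was higher. Mycn, a growth-promoting transcription factor used in the hair matrix, was at 22, 27.8 and 19.5 FPKM in the libraries labelled competent telogen and at 0.72, 0.78 and 1.14 in those labelled early anagen (log2 difference -3.67 ± 0.16, adjusted p = 1.27e-05). Ccnd1, the G1 cyclin, was lower by a smaller margin (-2.19 ± 0.08, adjusted p = 9.71e-06). The CDK inhibitors Cdkn2c and Cdkn1c were also lower, by -1.37 and -1.28. The replication-dependent histone gene Hist1h2ae, made during S phase, was at 146, 169 and 141 FPKM against 5.21, 6.48 and 6.59 (-4.43 ± 0.11, adjusted p = 3.31e-06), and histone genes of this kind are near-identical copies whose reads may have been divided among them.

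The hedgehog ligand Shh, made by the growing matrix, was at 9.05, 11.9 and 8.82 FPKM in the libraries labelled competent telogen. It was at 0.14, 0.27 and 0.20 in those labelled early anagen. The groups lay far apart, with a log2 difference of -3.17 ± 0.14 (adjusted p = 1.31e-05). Several receptors and targets of the pathway were lower too. Ptch1, a receptor that Shh binds, differed by -1.12. The target transcription factor Gli1 fell by 1.68 on the log2 scale and the decoy receptor Hhip by 2.3. The signal transducer Smo was at 12.6, 12 and 12.2 FPKM against 9.75, 11.4 and 11.2 and did not pass the test (adjusted p = 0.152). In all, 8 of 13 hedgehog genes were lower and 1, the ligand Dhh, was higher (7 and 3 under median-of-ratios scaling). Dhh is known from Schwann cells and was between 0.94 and 2.17 FPKM in all 6 libraries. Its call was lost without competent telogen replicate 1 or 3 or early anagen replicate 2 or 3 (adjusted p = 0.0627 to 0.0898). A replicate block (adjusted p = 0.0543) or no filter on low values (adjusted p = 0.0785) also ended it.

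WNT ligands, which start HF growth, were lower in 7 of 13 cases and higher in none. Wnt5a, a ligand that mostly acts outside the beta-catenin route, was at 25.2, 31.2 and 25 FPKM against 5.5, 5.42 and 4.3 (log2 difference -2.21 ± 0.13, adjusted p = 3.86e-05). The canonical ligands Wnt10b and Wnt10a, both found in the growing follicle, differed by -1.18 and -1.13. Wnt3, Wnt4, Wnt7b, Wnt9a, Wnt16 and Wnt2 did not pass the test on the deposited values, and Wnt7b was called higher under median-of-ratios scaling. All 4 R-spondins tested, which strengthen WNT signals by binding LGR receptors, were lower. Rspo3 was the furthest apart, at 7.98, 10.4 and 7.18 FPKM against 0.74, 1.49 and 0.49 (-2.34 ± 0.22, adjusted p = 0.000261). Lgr5, an R-spondin receptor of the stem cells and hair germ, was higher by 0.39 ± 0.10 (adjusted p = 0.0173), and lost its call without early anagen replicate 1 (adjusted p = 0.0657).

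Secreted WNT antagonists, which act against these ligands, were lower too, in 8 of 13 cases, with 2 higher. Wif1, which binds WNT proteins in the matrix around cells, had the largest difference of any WNT gene. It was at 69.8, 69.2 and 68.1 FPKM in the libraries labelled competent telogen and at 2.62, 2.81 and 2.82 in those labelled early anagen (log2 difference -4.22 ± 0.07, adjusted p = 4.29e-07). Notum, an enzyme that removes the lipid WNTs need, Sfrp2 and Sfrp1 fell by 1.66, 1.53 and 1.42 on the log2 scale. Dkk1, a blocker of the LRP co-receptors, was at 0.40, 0.88 and 0.52 FPKM and was listed at 0 in all 3 libraries labelled early anagen. The 2 higher members were Sfrp5 (0.81 ± 0.12, adjusted p = 0.00186), at 1.22 to 3.53 FPKM, and Dkkl1 (0.51 ± 0.09, adjusted p = 0.00403). Ligands and antagonists therefore moved the same way in most cases.

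Of 13 WNT target genes 9 were lower and 1 was higher. Lef1, a transcription factor of the pathway and itself a target, was at 38.9, 50.6 and 53 FPKM against 6, 4.78 and 6.2 (-2.86 ± 0.15, adjusted p = 2.32e-05). The feedback inhibitors Nkd2 and Znrf3 differed by -2.03 and -1.76. Axin2, the target most often used as a readout, was at 3.98, 4.48 and 3.57 FPKM against 6.07, 5.02 and 5.37, higher by 0.37 ± 0.11 (adjusted p = 0.0314). The groups of Axin2 did not overlap but lay close, and the call was lost without competent telogen replicate 1 or 3 or early anagen replicate 1 or 3 (adjusted p = 0.0687 to 0.105). Rescaling to a common sum, a replicate block or no filter on low values also ended it (adjusted p = 0.0564 to 0.068). Among 24 receptors and pathway components 10 were lower and 3 higher, not far from the shares of all genes (32.4% and 14.3%). The list median was -0.12, against -0.16 over all genes. Under median-of-ratios scaling 7 were lower and 5 higher, against 21.8% and 22.8% of all genes. The lower members were led by the WNT5A receptor Ror2 (-1.70 ± 0.13). The higher ones included Ctnnb1, which encodes beta-catenin (0.29 ± 0.08, adjusted p = 0.0294). Leaving out any 1 early anagen library ended the call on Ctnnb1 (adjusted p = 0.0827 to 0.0851). So did rescaling to a common sum (adjusted p = 0.0799) or a replicate block (adjusted p = 0.0636).

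BMP signals hold HFs at rest. Of 9 BMP and GDF ligands, 2 were higher and 3 lower, shares near those of all genes (14.3% and 32.4%). Bmp2, a ligand known to rise in refractory skin, was at 6.85, 9.01 and 6.74 FPKM in the libraries labelled competent telogen and at 11.5, 11.9 and 11.2 in those labelled early anagen (log2 difference 0.56 ± 0.12, adjusted p = 0.00815). Bmp4, the main dermal ligand, was at 42.7, 29.3 and 32.1 FPKM against 27.5, 27.1 and 30.1. Its groups overlapped and it did not pass the test (adjusted p = 0.156). Of 14 antagonists none was higher and 5 were lower, a share also near that of all genes, led by the decoy receptor Bambi (-1.54 ± 0.08) and Fstl1 (-1.39 ± 0.09). The classical antagonists Nog (adjusted p = 0.108) and Grem1 (adjusted p = 0.328) did not pass. The receptors Bmpr1a and Acvr1 and the transducer Smad1 were each higher by 0.44 to 0.53, and Bmpr1a did not pass without early anagen replicate 1 (adjusted p = 0.0532). The response gene Id3 fell by 0.92 on the log2 scale, while Id1 and Id2 did not pass. Under median-of-ratios scaling, Bmp7, Bmpr2 and Id1 were called higher as well, and 3 antagonists were lower.

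Other growth factor families held members of both directions. Of 18 FGF genes, 8 were lower and 2 higher, against 32.4% lower and 14.3% higher over all genes. Under median-of-ratios scaling 5 were lower and 2 higher, against 21.8% and 22.8% of all genes. Fgf7, a dermal papilla signal to the epithelium, was at 10.1, 9.34 and 8.38 FPKM against 2.21, 1.54 and 1.83 (-1.85 ± 0.12, adjusted p = 7.12e-05). Fgf18, which the stem cell niche makes during rest, was at 0.83, 0.80 and 1.31 FPKM against 2.45, 2.94 and 2.94 (0.94 ± 0.14, adjusted p = 0.00181). Fgf5, which ends anagen, fell by 0.70 on the log2 scale from 1.42, 1.93 and 1.71 FPKM. Among EGF family genes, Btc was higher (1.04 ± 0.07) and Areg lower (-1.41 ± 0.11). Edar, a receptor needed for HF formation, differed by -1.52 and its adaptor Edaradd by -0.95. Of 15 IGF and PDGF genes 6 were lower and 3 higher, not far from the shares of all genes. Igf1, a growth factor of the dermal papilla, fell by 1.29, and its binding proteins went both ways, with Igfbp2 at -2.79 ± 0.14 and Igfbp3 at 1.2 ± 0.08. In the Notch pathway the targets Heyl and Hes1 differed by -1.75 and -1.63, and the receptor Notch3 by 0.67.

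**Figure D2:**
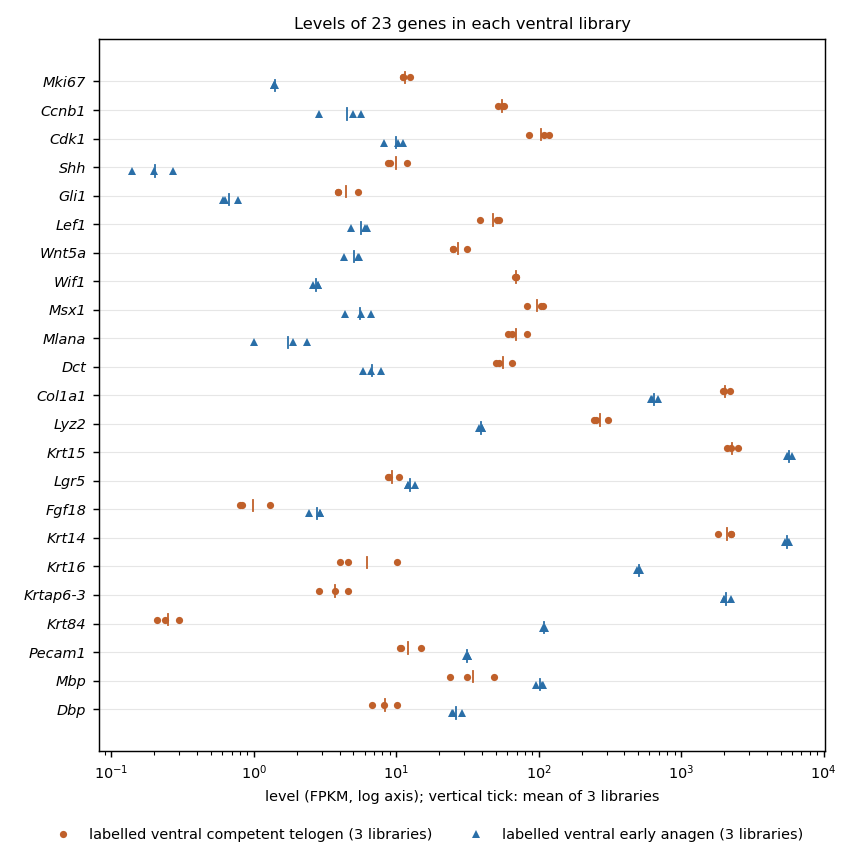
Level of 23 genes (x axis, FPKM on a log axis) in each of the 6 libraries, 1 point a library and a tick at each mean of 3, for libraries labelled competent telogen (circles) and early anagen (triangles). Replicates lie close together, Shh, Wif1 and Mki67 sit lower in the libraries labelled early anagen, and Krt84 and Krt16 sit higher.

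Markers of HF stem cells and hair germ were mostly higher. Of 18, 11 were higher and 3 lower, with a median of 0.55, against 14.3% higher over all genes. Krt15, a keratin of the bulge where the stem cells lie, was at 2504, 2111 and 2224 FPKM in the libraries labelled competent telogen and at 5511, 5659 and 6043 in those labelled early anagen (log2 difference 1.33 ± 0.09, adjusted p = 7.86e-05). Its groups were well apart. Col17a1, a hemidesmosome collagen of stem cells, rose by 0.99, the quiescence factor Nfatc1 by 0.80 and the bulge transcription factors Sox9 and Lhx2 by 0.68 and 0.57. The 3 lower members were Tbx1, the hair germ cadherin Cdh3 and Cd34. Cd34, which marks both bulge cells and other cell types, was at 101, 103 and 92.8 FPKM against 53.7, 54.6 and 57.1 (-0.83 ± 0.07, adjusted p = 0.00022).

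Dermal papilla markers went the other way, with 11 of 17 lower and 3 higher (median -0.84). Enpp2, which makes lysophosphatidic acid, was at 40.5, 39.3 and 38.7 FPKM against 12.4, 12.4 and 11.1 (-1.64 ± 0.08, adjusted p = 1.89e-05). Vcan, the versican of growing papillae, and Alpl, the alkaline phosphatase used to stain them, differed by -1.74 and -0.96. Of the 3 higher members, Ptprz1 had the largest difference, 1.04 ± 0.12 at 0.77 to 3.18 FPKM.

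Transcription factors of the hair matrix and shaft were lower in 16 of 17 cases and higher in none, with a median of -1.54. Msx1, a homeobox gene of the matrix, was at 108, 103 and 82.6 FPKM in the libraries labelled competent telogen. In those labelled early anagen it was at 5.64, 4.34 and 6.62 (-3.93 ± 0.16, adjusted p = 1.19e-05). Dlx4 and Dlx2 differed by -3.19 and -2.15, and Dlx3 and Msx2, which lie upstream of hair keratins, by -1.87 and -2.14. Hoxc13, which activates hair keratin genes, fell by 1.02 on the log2 scale. The inner root sheath, the first differentiated layer of a new hair, followed, with 8 of 16 genes lower and 1, Tchhl1, higher. Krt28 was at 566, 600 and 527 FPKM against 112, 126 and 117 (-2.25 ± 0.08, adjusted p = 9.71e-06), and Krt71 differed by -1.17.

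Hair keratins, the fibers of the shaft, did not follow the matrix factors as a group. Of 14, 7 were higher and 4 lower. Krt35, the keratin that starts in the precortex, was at 762, 768 and 640 FPKM against 87.6, 100.4 and 104.5 (-2.88 ± 0.11, adjusted p = 9.71e-06). Krt84 was at 0.30, 0.21 and 0.24 FPKM in the libraries labelled competent telogen and at 108, 109 and 110.5 in those labelled early anagen (6.46 ± 0.08, adjusted p = 9.65e-08). Krt36 differed by 3 in the same direction. Both kinds of change were far larger than the spread of replicates, and Krt35 and Krt36 show opposite signs in 1 family. Krt81, Krt34, Krt33b and Krt86, late keratins of the shaft, were higher by 0.68 to 1.12. The Krt84 promoter of the RefSeq set lies at chr15:101532771-101533070 on the minus strand. It is shown because this gene had the largest difference of the family. A TATA motif (TATAAA, or TTTATA on the other strand, in capitals) was in 15.7% of all genes and in 3 of the 5 higher and 2 of the 3 lower hair keratins matched. The single match in Krt84 lies 206 bases before the start, on the other strand, and is no evidence of a working TATA box.
Krt84: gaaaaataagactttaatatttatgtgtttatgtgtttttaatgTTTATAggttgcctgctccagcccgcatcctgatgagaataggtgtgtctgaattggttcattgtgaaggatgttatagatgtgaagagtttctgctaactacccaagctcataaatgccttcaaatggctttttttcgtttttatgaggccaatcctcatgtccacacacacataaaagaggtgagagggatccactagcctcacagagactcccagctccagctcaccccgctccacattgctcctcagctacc

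Keratin-associated proteins fill the space between hair keratins, and 8 of the 10 largest differences among higher genes were in this family when predicted genes and short RNAs were set aside. The family was counted after these values were seen, so the counts are a description. Of 56 members tested, 34 were higher and 16 lower. The subfamilies rich in glycine and tyrosine (6, 7, 8, 19, 20, 21 and 22) were higher in 16 of 16 members, with a median of 5.64 and a sum of 1260 to 1740 FPKM in the libraries labelled competent telogen against 26900 to 28600 in those labelled early anagen. The other subfamilies divided, with 18 higher and 16 lower of 40. Krtap6-3 was at 4.62, 2.87 and 3.73 FPKM against 2224, 2013 and 2010 (8.79 ± 0.14, adjusted p = 3.29e-07). Krtap20-2 differed by 8.62 and Krtap6-2 by 7.02. The means of these 3 genes were higher at ventral refractory telogen than at ventral mid-anagen. They were 6520 against 451 FPKM for Krtap6-3, 2710 against 28.7 for Krtap20-2 and 3060 against 1930 for Krtap6-2. Other members had the opposite order, such as Krtap19-9b at 4170 against 7090. Krtap19-9a was listed at 0 in 1 library labelled competent telogen and reached 6.1 FPKM in another. These genes are short and similar in sequence, so reads may have been shared between members.

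Keratins of the epidermis and outer root sheath were higher in the libraries labelled early anagen. Of 8 epidermal keratins 6 were higher and none lower, and the median was 0.61. Krt14 and Krt5, the pair of the basal layer, were higher by 1.41 ± 0.10 and 1.29 ± 0.08. Krt10, of the layers above, was at 728, 852 and 893 FPKM against 931, 966 and 966 and did not pass (adjusted p = 0.0959), and it was called higher under median-of-ratios scaling. All 3 stress and outer root sheath keratins were higher. Krt16, which is induced on wounding and in the companion layer, was at 4.59, 10.1 and 4 FPKM against 516, 503 and 492 (6.22 ± 0.28, adjusted p = 1.51e-05). Krt6a was at 127, 119 and 102 FPKM against 806, 813 and 769 (2.78 ± 0.09, adjusted p = 9.38e-06). Krt17 differed by 0.38 ± 0.12 (adjusted p = 0.0376), and lost its call without any 1 early anagen library (adjusted p = 0.0573 to 0.115). Under quantile normalization the Krt17 difference was 0.07 (adjusted p = 0.746). Its call was also lost with rescaling to a common sum, a replicate block or no filter on low values (adjusted p = 0.0716 to 0.152). The cornified envelope list was divided, with 14 higher and 6 lower of 32 (3 lower after scaling), led by Sprr4 (3.57 ± 0.15) and Flg2 (1.26 ± 0.10) among the higher and Casp14 (-1.14 ± 0.08) among the lower. Of 20 adhesion and basement membrane genes 12 were higher and 1 lower, with the desmosomal cadherins Dsc2 and Dsg3 at 1.72 and 1.19 and the hemidesmosome integrin Itgb4 at 1.03.

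Genes of the dermal matrix were lower. Of 26 fibrillar collagen and elastic fiber genes, 23 were lower and none higher (median -1.19), and 23 were lower and 2 higher under median-of-ratios scaling. Col1a1, a chain of the main dermal collagen, was at 1957, 1994 and 2192 FPKM against 686, 618 and 629 (-1.67 ± 0.08, adjusted p = 2.11e-05). Its partner Col1a2 fell by 1.87 on the log2 scale and the small proteoglycans Lum and Dcn by 1.81 and 1.66. Of 13 collagen processing genes 9 were lower, with Pcolce at -1.84 and the collagen chaperone Serpinh1 at -1.42. Matrix metalloproteinases went both ways. Mmp11 was at 5.08, 3.67 and 5.96 FPKM against 35.7, 27.6 and 28.2 (2.43 ± 0.17, adjusted p = 8.76e-05), while Mmp3 fell by 1.7. Fat-storage genes divided, with 9 lower and 4 higher of 24, shares near those of all genes (32.4% and 14.3%). Under median-of-ratios scaling 6 were lower and 6 higher. Among the lower members were the lipid droplet coat gene Plin1, the lipase Lpl and the hormone Adipoq, at -1.49, -1.39 and -0.94. All 15 called genes of the 22 for cholesterol synthesis were lower, among them Idi1, an isomerase early in the pathway (-1.14 ± 0.10), and 12 were lower and 4 higher after that scaling.

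Pigment genes were lower in 14 of 17 cases, with a median of -1.81. Mlana, a melanosome protein, was at 64.8, 83.3 and 61 FPKM in the libraries labelled competent telogen and at 1, 1.89 and 2.37 in those labelled early anagen (-4.70 ± 0.21, adjusted p = 1.5e-05). Pmel, which forms the fibrils on which melanin settles, was at 72.2, 82.6 and 57.3 FPKM against 4.72, 4.17 and 4.01 (-3.74 ± 0.14, adjusted p = 9.71e-06). The enzymes Dct and Tyrp1 differed by -2.87 and -2.84. The groups were far apart for each of these genes.

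Immune lists were lower or divided. Of 24 macrophage and antigen-presenting cell genes, 19 were lower and none higher (median -1.13), and 19 were lower and 1 higher under median-of-ratios scaling. Lyz2, the lysozyme of myeloid cells, was at 308, 247 and 252 FPKM against 38.2, 40.2 and 40.3 (-2.73 ± 0.10, adjusted p = 9.71e-06). The complement subunits C1qa, C1qb and C1qc differed by -2.26 to -2.49. Ccl8, a chemokine for monocytes, was at 326, 238 and 254 FPKM against 36.3, 45.8 and 34.7 (-2.77 ± 0.15). Of 8 mast cell genes 5 were lower, including the proteases Cma1 (-1.73) and Mcpt4 (-1.67). The epidermal chemokine Ccl27a rose by 1.4. Of 14 T cell and NK cell genes 3 were lower and 2 higher, shares at or below those of all genes (32.4% and 14.3%). The receptor chain gene Cd3e was at 2.68, 1.6 and 2.57 FPKM against 7.32, 5.61 and 4.71. After scaling, none of this list was lower and 4 were higher.

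Vessel and nerve genes were higher. Of 21 blood and lymph vessel genes 13 were higher and 3 lower (median 0.64). Pecam1, which joins endothelial cells, was at 10.7, 10.8 and 15 FPKM against 31.7, 31 and 32.2 (1.32 ± 0.13, adjusted p = 0.00035). The VEGF receptor Flt1 and the endothelial cadherin Cdh5 differed by 1.40 and 1.35. The lymphatic and fibroblast protein Pdpn was among the 3 lower genes (-2.02 ± 0.09). Of 12 Schwann cell and nerve genes 11 were higher and none lower. Mbp, a myelin protein, was at 31.5, 48.3 and 23.8 FPKM against 104.99, 96.6 and 107 (1.61 ± 0.23, adjusted p = 0.00157). Of 26 skeletal muscle genes 15 were higher and 3 lower (median 0.51), with the fast troponin Tnnc2 at 62.2 to 73.3 FPKM against 111 to 133. These muscle, nerve and vessel markers moved together with the epidermal keratins and opposite to collagens and macrophage genes, and their part in the other differences was not tested.

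Clock and energy genes also differed. Of 19 circadian genes 9 were higher and 3 lower. Dbp, a direct clock output, was at 10.2, 8.23 and 6.78 FPKM against 24.8, 29 and 25.2 (1.55 ± 0.14, adjusted p = 0.000261), and Per1 differed by 1.46 ± 0.10. The labels gave no hour of collection. Of 13 mitochondrially encoded genes 9 were higher and none lower, and their summed share was 5.33% to 7.6% against 7.52% to 11.6%. Of 27 nuclear respiratory chain genes 16 were lower and none higher, for example Cox5a (-1.07 ± 0.09), and 9 were lower and 1 higher under median-of-ratios scaling. Called genes of the mitochondrial and the nuclear genome, which encode subunits of shared complexes, had opposite signs.

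The largest falls outside the matrix lists were in a liver-associated enzyme and in a pheromone carrier family. Gnmt, which uses S-adenosylmethionine to methylate glycine, was at 173, 194 and 121 FPKM against 4.01, 2.35 and 2.66 (-5.35 ± 0.22, adjusted p = 1.17e-05). Mup10, of the major urinary proteins, was at 918, 663 and 796 FPKM against 23.2, 17.8 and 18 (-5.26 ± 0.15, adjusted p = 5.16e-06). Counted after these values were seen, 9 of 12 such genes were lower and none higher, with a sum of 1100 to 1580 FPKM against 39.3 to 43.9. The copies of this family are near-identical, so the value of a single member is uncertain.

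The study listed putative activators and inhibitors of hair growth from an earlier microarray time course of skin, by matching gene profiles to a model. In group 1 of the activators 138 of 141 genes were tested. 129 were lower in the libraries labelled early anagen and none higher, with a median of -1.24. Over all genes 14.3% were higher and 32.4% lower, or 22.8% and 21.8% under median-of-ratios scaling. In group 2 of the activators 25 were higher and 34 lower of 95, and under that scaling the balance turned to 37 higher and 26 lower. The inhibitors divided into 24 higher and 23 lower of 75 in group 1 (34 and 17 when scaled), and 4 higher and 26 lower of 45 in group 2 (8 and 14 when scaled). On the deposited values, the lower shares of activator group 2 and inhibitor group 1 were near that of all genes. When single libraries were left out, the higher genes of inhibitor group 1 numbered 14 to 20.

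**Figure D3:**
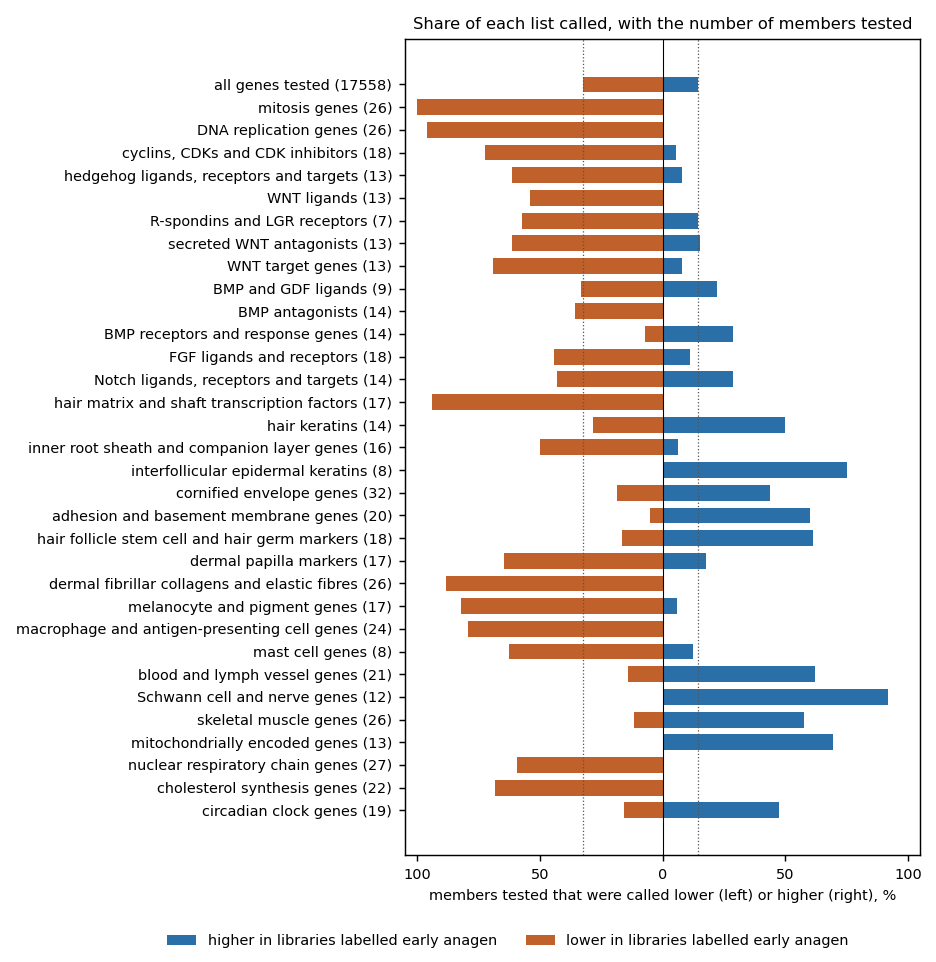
Share of tested genes called higher (right) or lower (left) in the libraries labelled early anagen (x axis, percent) for 32 gene lists and for all 17558 genes, whose shares are the dotted lines. Mitosis, DNA replication and matrix factor lists lie wholly on the lower side, and epidermal keratin, nerve and vessel lists lie mainly on the higher side.

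Levels at the other stages place these values. The mean of the 26 mitosis genes was 4.48 to 4.66 on the log2(FPKM + 1) scale in the libraries labelled ventral competent telogen and 1.83 to 1.97 in those labelled ventral early anagen. It was 3.80 to 3.92 at ventral mid-anagen, 3.65 to 3.69 at late anagen, 3.92 to 3.97 at catagen and 2.18 to 2.30 at refractory telogen. The libraries labelled early anagen were thus the lowest of the 6 ventral stages, and those labelled competent telogen the highest, with no overlap with their neighbors in that order. The pigment mean was 3.39 to 3.72 in the libraries labelled competent telogen, against 1.62 to 1.66 in those labelled early anagen and 1.56 to 1.80 at refractory telogen, where the last pair overlapped. The stem cell marker mean was 4.99 to 5.02 in the libraries labelled early anagen, above every other ventral stage. The hair keratin mean in the libraries labelled early anagen, 6.82 to 6.98, was below mid-anagen (8.57). It was also below refractory telogen, at 8.12 and 8.35, unlike the pigment mean, which overlapped it. The libraries labelled competent telogen were lowest at 6.18 to 6.46.

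**Figure D4:**
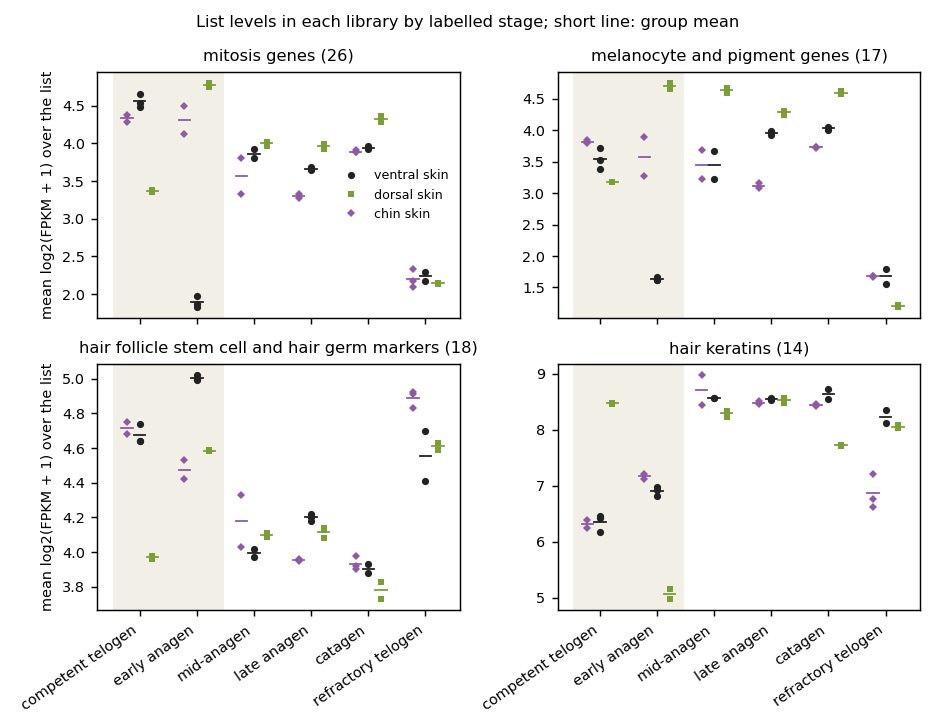
Mean level (y axis, log2(FPKM + 1)) of 4 gene lists at the 6 labelled stages (x axis) in ventral, dorsal and chin skin, 1 point a library with a short line at each group mean. For mitosis genes the ventral libraries run from 4.48 to 4.66 at competent telogen down to 1.83 to 1.97 at early anagen, where the dorsal libraries are at 4.75 to 4.80.

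The change was set against dorsal and chin skin at the same labels, which had 2 libraries per group, in a fit of 14 libraries and 19352 genes with the difference between domains tested directly. Ventral change exceeded dorsal change in 2219 genes (11.5%) and fell below it in 8291 (42.8%), or 54.3% of genes in all. Under median-of-ratios scaling these counts were 4591 and 4213. Against chin the counts were 1794 (9.27%) and 4066 (21%), or 30.3% in all, and 2784 and 2802 when scaled. Both comparisons use the same 6 ventral libraries. The dorsal competent telogen pair differed by only 1.46 times the counting noise estimated from depth, against 2.33 to 3.82 times between ventral replicates, and whether that pair is technical was not tested. Mitosis genes differed in 26 of 26 cases from dorsal skin and in 25 of 26 from chin skin, lower in ventral skin each time. In dorsal skin all 26 were higher at early anagen (median 1.44), where 38.2% of all genes were higher, 9.19% lower and 47.3% called. In chin skin none was called (median -0.02), with 1.93% of all genes called, 1.19% higher and 0.739% lower. Mki67 was at 6.27 and 6.12 FPKM in dorsal competent telogen and 12.9 and 13.4 in dorsal early anagen, and at 13.5 and 13.3 against 13.9 and 15.2 in chin. The ventral change in Mki67 minus the dorsal was -3.36 ± 0.11 (adjusted p = 2.99e-09) and minus the chin -2.49 ± 0.11 (adjusted p = 4.72e-07). For Shh the ventral minus dorsal difference was -5.11 ± 0.32 (adjusted p = 5.19e-07).

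Against dorsal skin, 13 of 14 hair keratins were higher and 1 lower in ventral minus dorsal change. Called epidermal keratins moved the same way in both, with 6 of 8 higher in ventral skin, 4 of 8 higher in dorsal skin and none lower in either. By the direct test, the ventral change was above the dorsal in 3 of the 8 and below it in 2. Against chin skin 2 hair keratins were higher and 8 lower, and 10 of the 14 were higher at chin early anagen. On the log2 scale, the ventral minus dorsal difference was 17.63 for Krtap6-3, 16.72 for Krtap19-9b, 16.33 for Krtap20-2, 15.66 for Krtap6-2 and 15.65 for Krtap19-5, and all 14 hair keratins were lower at dorsal early anagen. Krt84 was at 45.8 and 44.3 FPKM in dorsal competent telogen and at 0.20 and 0.18 in dorsal early anagen, the opposite order to ventral skin. In chin skin it was at 0.39 and 0.08 against 3.73 and 2.73, so that the ventral minus chin difference was 4.69 ± 0.17 (adjusted p = 2.53e-07). Krt15 rose in both ventral and dorsal skin. It was at 664 and 649 FPKM against 2242 and 2157 in dorsal skin and at 2513 and 2557 against 1776 and 1360 in chin skin. Its ventral minus dorsal difference was -0.41 ± 0.15 (adjusted p = 0.0429), a value that turned to 0.27 under median-of-ratios scaling and did not pass in 10 of the 14 fits that each left out 1 library. Its ventral minus chin difference was 2.04 ± 0.15 (adjusted p = 1.01e-05). The stem cell keratin was thus a gene on which ventral and dorsal skin moved the same way while the division genes moved opposite ways.

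**Figure D5:**
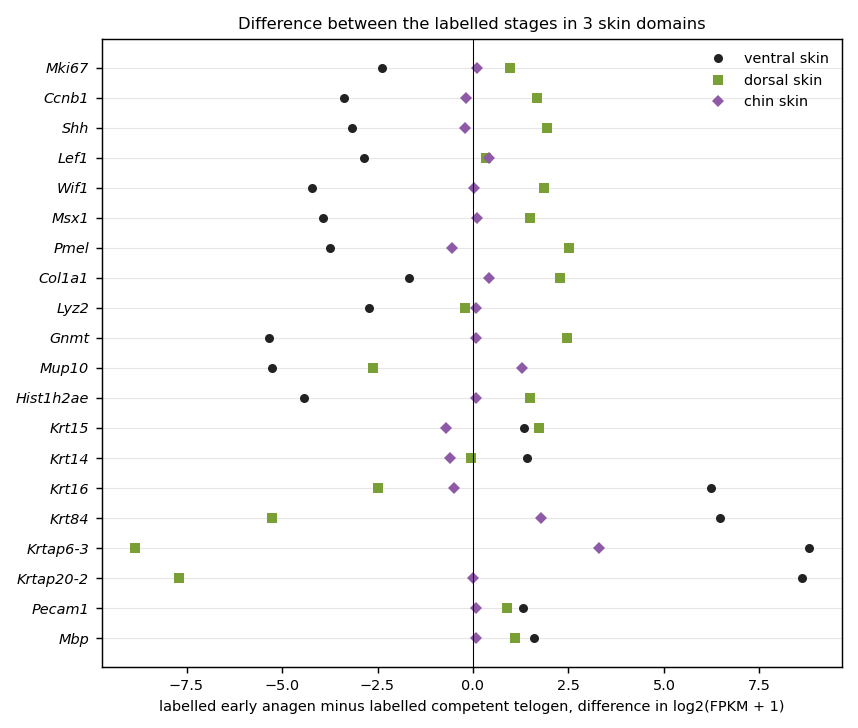
Log2 difference between libraries labelled early anagen and competent telogen (x axis) for 20 genes in ventral (3 against 3 libraries), dorsal and chin skin (2 against 2 each). Mki67 and Shh lie below 0 in ventral skin and above 0 in dorsal skin, and Krt84 lies above 0 in ventral skin and below 0 in dorsal skin.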

How the data were processed

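Whole skin RNA was measured by SMART-seq2. Per the labels, the authors quantified reads with RSEM 1.2.25 on mm10, and per their methods with GENCODE vM8 genes and a batch-effect correction whose batches are not named. The deposited values are FPKM with 2 decimals for 46983 genes. Fragment numbers (8253293 to 18627003 in the ventral libraries compared) were estimated from the steps of low FPKM values. They set the precision of low genes, and such precision covers counting error only.

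Groups were taken from the labels. Genes with at least 0.5 FPKM in 2 libraries were tested with limma 3.58.1 (R 4.3.3, variance trend, Benjamini-Hochberg adjustment) on log2(FPKM + 1), 3 libraries against 3. Log2 differences on this scale understate the change of low genes. Differences between domains were terms of 1 fit to 14 libraries in 6 groups. Since the values are not counts, no count model was used. The fit was tested on simulated data: of 100 genes changed by 1 on the log2 scale among 16991, 67% were recovered, of 100 changed by 2, 98%, and 8 unchanged genes were called. Changed genes were few there and had a mean log2(FPKM + 1) above 2, whereas 46.7% of genes were called in the data. Recovery in the data can therefore differ.

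The comparison and the 65 gene lists (1204 genes, 1098 tested) were chosen with earlier results of these data known. Named genes were members of lists of at most 45 genes, the 10 largest non-overlapping called differences in each direction at a mean of at least 1 FPKM (predicted genes and short RNAs set aside), and the 5 largest differences between domains. Promoters were 300-base RefSeq windows of GRCm38.p6. No coordinates of the files were used. The ear pinna libraries were not used here. The other stages were used only for the levels given, the correlations between groups and the fit of all skin libraries. Alternatives were another pseudocount, other filters, rescaling to TPM, median of ratios, quantile normalization, no trend, a replicate block, a fit of all 43 libraries, and each library left out. Results for a few genes are not reported here.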

Additional observations from a re-analysis of the deposited data

Results flagged for a closer look

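The results below were singled out because the change between the libraries labelled competent telogen and early anagen differed between ventral skin and another domain by a direct test of that difference. Of 19352 genes, the ventral change was above the dorsal in 2219 (11.5%) and below it in 8291 (42.8%), a balance that was 4591 to 4213 with median-of-ratios scaling. Against chin skin the numbers were 1794 and 4066 (2784 and 2802 when scaled).

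Against dorsal skin the log2 difference of the changes was 17.63 for Krtap6-3, 16.72 for Krtap19-9b, 16.33 for Krtap20-2, 15.66 for Krtap6-2 and 15.65 for Krtap19-5, all genes of hair shaft proteins. It was -7.81 for the methyltransferase Gnmt, -6.25 for the melanosome gene Pmel, -6.10 for the WNT antagonist Wif1, -5.91 for the histone gene Hist1h2ae, -5.11 for Shh, -3.36 for Mki67 and -0.41 for the bulge keratin Krt15. The mitochondrial gene mt-Nd4l was singled out at -7.31, but it was listed at 0 in 3 of the 6 ventral libraries, and 8 of the 10 fits without a ventral or dorsal library did not pass (adjusted p up to 0.0625).

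Against chin skin the log2 difference was 8.62 for Krtap20-2, 6.71 for Krt16, 5.50 for Krtap6-3, 4.69 for Krt84 and 2.04 for Krt15. It was -6.54 for Mup10, -6.52 for Mup16, -6.25 for Mup18, -5.81 for Mup11, -5.47 for Mup7 and -2.49 for Mki67, and the Mup genes share reads between near-identical copies. The mitochondrial tRNA gene mt-Ta had a difference of 8.87, although among the ventral libraries compared it was above 0 only in early anagen replicate 2, at 78.4 FPKM. Most of the difference came from chin skin, where the change was -6.76. There it was at 101 and 115 FPKM in competent telogen and listed at 0 in early anagen.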

How the results depend on the processing

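Scaling was the choice that mattered. With the median of ratios, 3995 genes were higher in the libraries labelled early anagen, and with quantile normalization 3884, against 2510 as deposited. Higher genes were then 51.1% and 49.8% of the calls, against 30.6%. For ventral minus dorsal change the median of ratios gave 4591 higher and 4213 lower genes and quantile normalization 3948 and 4949. For ventral minus chin change they gave 2784 and 2932 higher, and quantile normalization gave 2686 lower. The Krt15 difference between ventral and dorsal change reversed to 0.27 (adjusted p = 0.199) with the median of ratios. The cause of these shifts was not tested. The other alternatives kept every count of genes within 1.5 times. Without single libraries 1941 to 2396 genes were higher and 4631 to 5830 lower. Replicate numbers did not pair the samples (r of same-numbered deviations -0.209 to -0.0279), and with a replicate block 2183 genes were higher and 5157 lower. Of 158 genes named in the ventral comparison, 144 kept direction and call in every alternative. Depth limits the genes of lowest level, whose values the deposited 2 decimals also round.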

Other observations

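Further gene groups of whole skin were measured in the libraries labelled competent telogen and early anagen. Over all genes 14.3% were higher and 32.4% lower. Of 28 HOX genes, which record body position, 8 were lower and 2 higher, shares at or below those of all genes. Hoxa9 was at 20.8, 12.5 and 20.1 FPKM against 7, 8.34 and 7.24 (log2 difference -1.11). Of 16 other positional transcription factors 9 were lower and 1, Meox2, was higher. Tbx15, which sets dorsal against ventral coat identity, differed by -1.06. Of 17 sebaceous gland lipid genes 6 were higher and 4 lower, with the wax synthase Awat2 at 1.09 and the fatty acid elongase Elovl3 at -1.97. Of 10 simple epithelial keratins and uroplakins 6 were higher and 3 lower, with Krt18 at 2.96, 4.85 and 2.96 FPKM against 19.3, 20.8 and 22.3 (2.27). Krt8, its partner, differed by 1.54. Of 16 hormone receptor genes 6 were lower and 4 higher (5 and 7 with median-of-ratios scaling), not far from the shares of all genes, with the estrogen receptor Esr1 at -0.82.

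The following genes, most of them predicted genes outside the named set, were chosen after their values were seen. Gm7735 was at 7, 13.1 and 3.83 FPKM against 5445, 4707 and 5332. Gm10800 was at 211, 771 and 237 FPKM against 9255, 11017 and 10522, and Gm26870 at 125, 489 and 117 against 6089, 6529 and 6665. The ribosomal RNA gene Rn18s-rs5 was at 601, 690 and 952 FPKM against 6390, 6685 and 6755. Car6, a secreted carbonic anhydrase, was at 8, 6.7 and 7.57 FPKM against 319, 289 and 323 (5.21).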
